A study of Mus musculus with 6 samples.

Results

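Tropomyosins, calponins and transgelins are proteins that lie along or bundle actin filaments, and 10 genes of this kind were followed: the tropomyosins Tpm1, Tpm2, Tpm3 and Tpm4, the calponins Cnn1, Cnn2 and Cnn3, the transgelins Tagln and Tagln2, and the smooth muscle alpha-actin Acta2. They were chosen by name after the differences between these same arrays were known, so their differences are given as a description, with no p-value, and a call means only that a probe set passed the threshold of the fit over the whole table. Every probe set annotated to exactly 1 of the 10 genes was taken, which gave 29 of the 45037 probe sets tested and 10 of 18193 genes.

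Total RNA was measured on Affymetrix mouse arrays, 3 from mouse embryonic stem cells in which esiRNA targeted Panct1, a long noncoding RNA, and 3 from the same cells given an esiRNA against Luciferase, a gene mouse cells do not have. Both groups were Oct4-Gip cells, a single reporter line in which Oct4 regulatory sequences drive a fluorescent protein and a drug resistance gene, kept in serum and LIF, with 60000 cells and 800 ng of esiRNA per transfection and RNA taken at 72 hours. An esiRNA is an enzymatic digest of a long double-stranded RNA. The labels do not say that replicates were separate cultures, and depletion of Panct1 could not be read here, since no probe set is named for it in the annotation used.

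The thin filament of a cell is a polymer of actin with tropomyosin dimers running along it, and the tropomyosin isoform on a filament influences which myosins and severing proteins can act there. Calponins and transgelins share the calponin-homology domain and bind and stabilise actin bundles. Cnn1, Tagln and Acta2 are classic markers of smooth muscle differentiation, while Tpm3, Tpm4, Cnn2, Cnn3 and Tagln2 are made in many non-muscle cells. Several of these genes are textbook targets of serum response factor (SRF) and its actin-sensing cofactors of the MRTF family, which act through a promoter element named the CArG box.

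Stretches around the start sites of Cnn2, Acta2 and Tpm1 are shown because they hold a CArG box or a near match and because the brightest probe sets of all 3 genes were higher in knockdown. The RefSeq table of build GRCm38.p6 gave 10 start-site windows for 9 of the 10 genes, all but Tagln, each from 250 bases before to 50 after the start. Cnn2 is at chr10:79988350-79988649 on the plus strand, Acta2 at chr19:34255324-34255623 on the minus strand and Tpm1 at chr9:67049164-67049463 on the minus strand, each printed 5′ to 3′ along the gene. Capitals mark a CArG box, a CArG box with 1 letter off, or the MCAT element CATTCC on either strand, the element that TEAD factors bind.
Cnn2: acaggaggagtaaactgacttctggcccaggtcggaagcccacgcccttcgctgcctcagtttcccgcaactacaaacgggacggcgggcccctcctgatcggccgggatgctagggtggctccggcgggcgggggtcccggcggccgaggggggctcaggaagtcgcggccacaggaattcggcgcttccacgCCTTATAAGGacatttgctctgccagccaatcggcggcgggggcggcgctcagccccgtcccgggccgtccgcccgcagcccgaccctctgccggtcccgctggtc
Acta2: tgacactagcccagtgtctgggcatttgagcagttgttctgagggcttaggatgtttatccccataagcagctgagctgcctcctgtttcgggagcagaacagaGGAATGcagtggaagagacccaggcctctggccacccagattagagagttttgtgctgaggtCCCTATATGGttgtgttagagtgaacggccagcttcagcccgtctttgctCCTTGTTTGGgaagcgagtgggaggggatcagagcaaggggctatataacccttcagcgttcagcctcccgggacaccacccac
Tpm1: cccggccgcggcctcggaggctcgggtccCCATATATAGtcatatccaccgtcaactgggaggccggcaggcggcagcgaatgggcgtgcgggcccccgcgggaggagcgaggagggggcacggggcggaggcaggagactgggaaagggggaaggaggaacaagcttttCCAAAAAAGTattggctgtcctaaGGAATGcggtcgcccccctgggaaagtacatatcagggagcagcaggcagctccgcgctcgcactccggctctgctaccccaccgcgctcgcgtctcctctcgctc

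The exact CArG box in Cnn2 ran from position -56 to -47 relative to the start and was the single exact match among the 10 windows. Over all 32851 start-site windows of the table, 535 (1.63%) held one on either strand. An exact box or one with 1 letter off was found in 5 of the 10 windows, against 21.1% of all windows. In Acta2 such near matches lay at -84 to -75 and at -34 to -25, and in Tpm1 at -221 to -212 and at -80 to -71. The others of this kind were in the 2 windows of Tpm3. CATTCC occurred on either strand in 3 of the 10 windows, those of Tpm1, Acta2 and Tagln2, and in 14.7% of all windows. No motif in the Acta2, Cnn2 or Tpm1 windows overlapped another. The windows of Tpm2, Tpm4, Cnn1 and Cnn3 held none of these letters.

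Of the 29 probe sets, 14 were called higher in Panct1 knockdown and 0 lower, by limma at an adjusted p under 0.05 over all probe sets (19 and 0 at an unadjusted p under 0.05). Of all probe sets tested, 7.82% were called higher and 6.76% lower, and since the genes were chosen with this contrast in view nothing is read from the comparison. The 3 knockdown arrays lay above all 3 control arrays for 20 of the 29, a pattern found for 14.2% of all probe sets, and the groups overlapped for the other 9. The median difference was 0.25 over the 29 and -0.02 over all probe sets, on the log2 scale. With 1 probe set a gene, the one with the highest mean over the 6 arrays, 8 of the 10 genes were called higher and 0 lower, where 12.9% and 11.3% of all genes were called higher and lower, and 5 of the 10 were at least 2-fold higher. Levels are log2 RMA signals and differences are knockdown minus control throughout, and in RNA of whole cultures fewer cells of a type and less RNA per cell cannot be told apart.

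**Figure D1:**
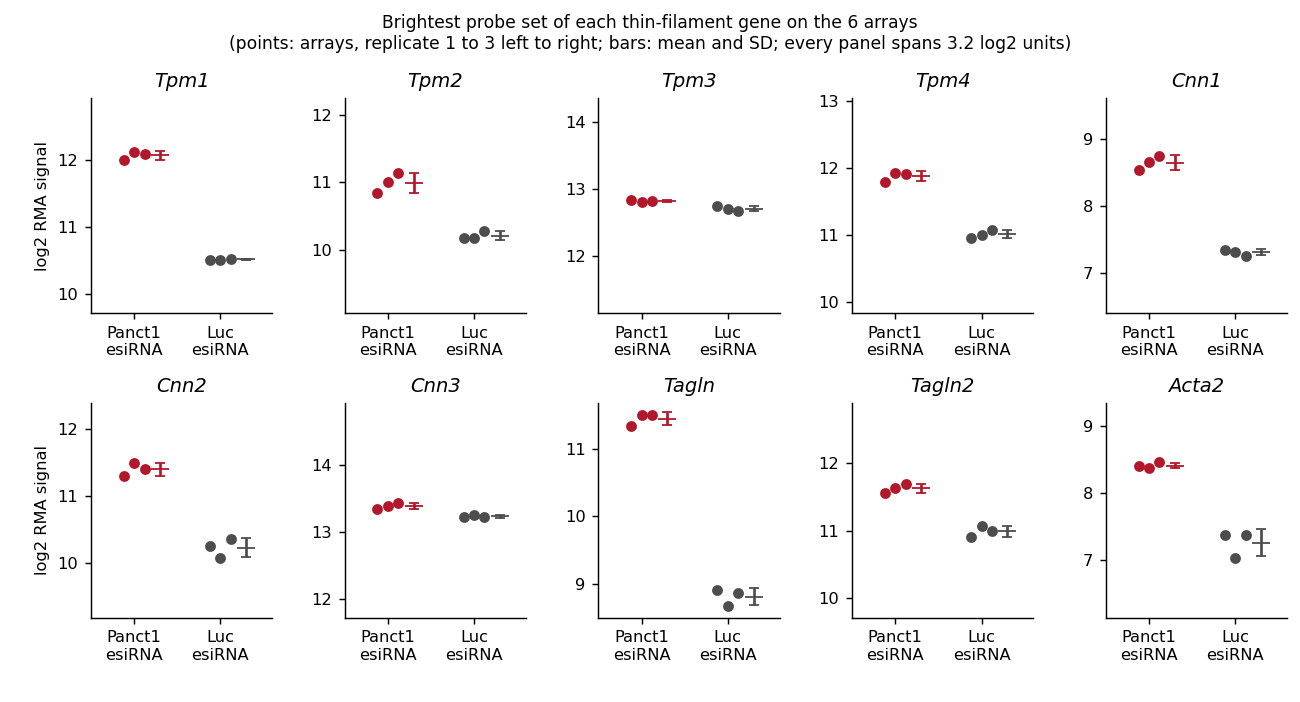
Log2 RMA signal (vertical axis) of the brightest probe set of each gene, with 1 point per array, Panct1 esiRNA left of Luciferase esiRNA, and the mean and SD of 3 arrays beside them; every panel spans the same height. The gap between groups is widest for Tagln (11.46 against 8.81) and narrowest for Tpm3 (12.83 against 12.71) and Cnn3 (13.39 against 13.24).

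Tagln, which encodes the transgelin SM22-alpha, had signals of 11.35, 11.51 and 11.52 on the Panct1 knockdown arrays, against 8.90, 8.66 and 8.86 on the control arrays. All knockdown arrays lay above all control arrays, by at least 2.45. The difference was 2.65 in log2 units (SE 0.09, 3 arrays in each group), or 6.29-fold, which put Tagln at rank 2 of the 18193 genes and rank 4 of all probe sets by size of a positive difference. Tagln has a single probe set, so no other set on the array bears on this value.

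Tagln2, the widely expressed transgelin, had 11.56, 11.63 and 11.70 in knockdown, against 10.90, 11.07 and 10.99 in controls, for its brightest probe set. The groups did not overlap, and the difference was 0.64 (SE 0.07). Its second probe set, of the _x_at kind, in which some probes can match other sequences, differed by 0.55 (SE 0.07). The dimmest had means of 3.67 in knockdown and 3.72 in controls, under the arrays' lower quartiles (4.65 to 4.70), and its difference of -0.05 (SE 0.14) says little.

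Cnn1, the basic calponin of smooth muscle, had 8.53, 8.66 and 8.75 in knockdown, against 7.35, 7.32 and 7.26 in controls. Every knockdown array was higher, and the difference was 1.34 (SE 0.08), or 2.53-fold. Cnn2, a calponin of non-muscle and smooth muscle cells, had 11.30, 11.50 and 11.41 in knockdown, against 10.26, 10.08 and 10.37 in controls. These groups were also apart, by at least 0.93, with a difference of 1.17 (SE 0.09).

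Cnn3, the acidic calponin, is read by 6 probe sets, and none of the 6 was called. Its brightest set had 13.35, 13.39 and 13.43 in knockdown, against 13.23, 13.26 and 13.22 in controls, a difference of 0.15 (SE 0.06). All 6 differences were above 0, from 0.15 to 0.25, and in 5 of the 6 sets the groups did not overlap. The largest, 0.25 (SE 0.07), was for the only set of Cnn3 without the _x_at suffix, with 12.13, 12.20 and 12.32 in knockdown and 11.99, 11.93 and 11.99 in controls. The 3 calponins thus showed differences of 1.34, 1.17 and, at most, 0.25. The 5 Cnn3 sets whose groups did not overlap passed at an unadjusted limma p under 0.05, so their lack of a call rests on the adjustment.

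Tpm1, the alpha-tropomyosin gene, gave 2 probe sets with nearly equal differences. The brighter had 11.99, 12.12 and 12.09 in knockdown, against 10.51, 10.51 and 10.52 in controls, and the other 11.89, 11.87 and 12.07 against 10.31, 10.45 and 10.32. Neither set's groups overlapped, and the differences were 1.55 (SE 0.07) and 1.58 (SE 0.08). Another set had 8.05, 8.13 and 8.17 in knockdown, against 7.42, 7.45 and 7.55 in controls, and its difference of 0.64 (SE 0.07) was smaller. The last lay below the lower quartile of the arrays in both groups, with means of 3.86 in knockdown and 3.98 in controls. Tpm1 makes many transcripts from alternative starts and ends, and which of them each set reads was not analysed here.

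Tpm2, the beta-tropomyosin gene, had 10.84, 11.00 and 11.14 in knockdown, against 10.17, 10.17 and 10.28 in controls, for its brightest set. Knockdown replicate 3 was the highest and the groups did not overlap, with a difference of 0.79 (SE 0.09). A second set gave 9.97, 10.15 and 10.37 in knockdown, against 9.25, 9.33 and 9.38 in controls, a difference of 0.84 (SE 0.10). The other sets are dimmer and disagreed. An _x_at set had means of 5.72 in knockdown and 5.11 in controls and a difference of 0.61 (SE 0.12). The remaining set, with means of 5.93 in knockdown and 6.00 in controls, overlapped between the groups and differed by -0.07 (SE 0.09).

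Tpm4, a short non-muscle tropomyosin, had 11.79, 11.92 and 11.91 in knockdown, against 10.95, 11.00 and 11.07 in controls. The groups were apart by at least 0.72, and its single probe set differed by 0.87 (SE 0.07), or 1.82-fold.

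Tpm3, also known for non-muscle tropomyosins, had the smallest difference of the tropomyosin genes by brightest set. Its brightest set had 12.84, 12.81 and 12.83 in knockdown, against 12.75, 12.71 and 12.67 in controls, and the difference of 0.12 (SE 0.06) was not called. Of its other 4 sets, 3 overlapped between the groups, with differences of 0.04, 0.12 and 0.02. The remaining one was called, with 6.05, 5.87 and 6.06 in knockdown against 5.50, 5.18 and 5.31 in controls, a difference of 0.66 (SE 0.10). That set is dim, with a mean of 5.99 in knockdown and 5.33 in controls against array medians of 6.07 to 6.09, and it was among those removed where dim sets were left out. What transcript it reads was not analysed here.

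Acta2, alpha-actin of smooth muscle, had 8.39, 8.37 and 8.45 in knockdown, against 7.37, 7.02 and 7.37 in controls. The groups were apart by at least 1.00, and the difference was 1.15 (SE 0.10), or 2.22-fold. This value rests on 1 set of the _s_at kind, which can read transcripts of more than 1 gene, and actin genes are close in sequence. Both other Acta2 sets lay below the lower quartile of the arrays, with means of 4.54 and 3.60 in knockdown and 4.46 and 3.62 in controls, and differed by 0.09 and -0.02.

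**Figure D2:**
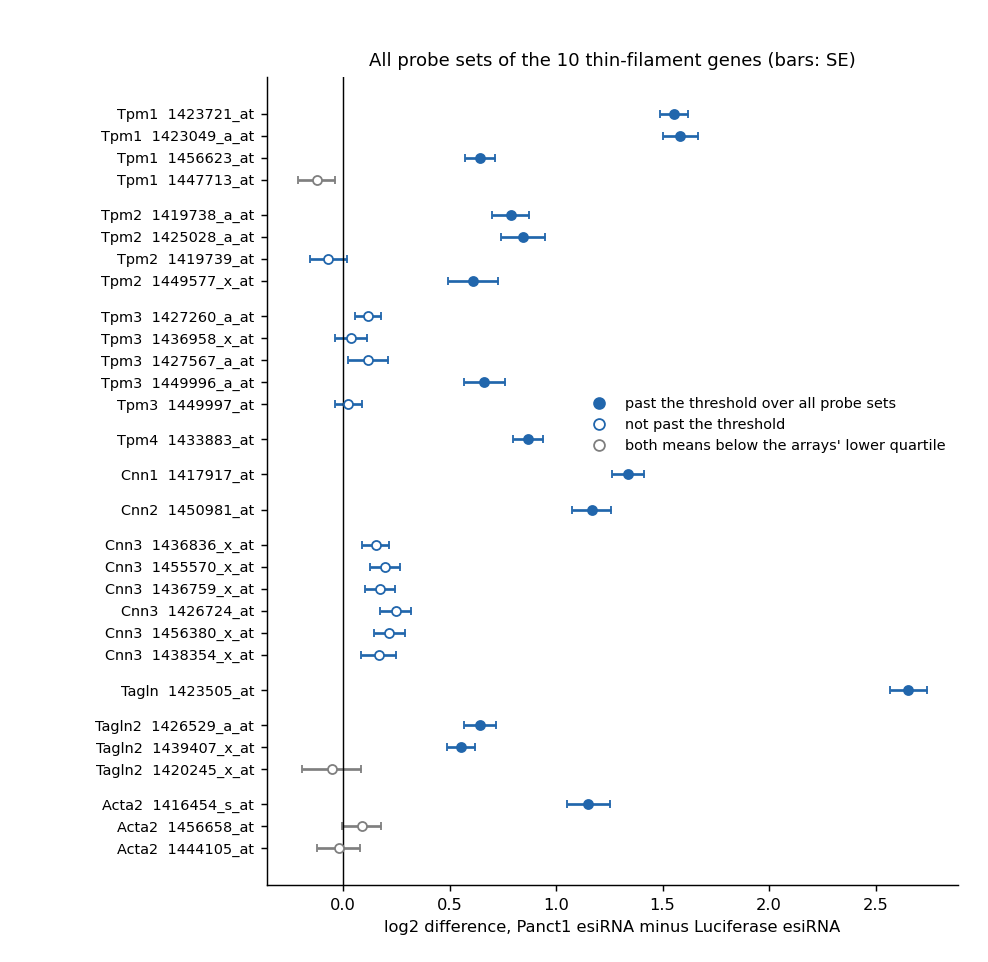
Log2 difference, Panct1 esiRNA minus Luciferase esiRNA (horizontal axis), of all 29 probe sets with its SE; filled points passed the threshold over all probe sets, open points did not, and grey points had both group means below the arrays' lower quartile. The 14 filled points run from 0.55 for a Tagln2 set to 2.65 for Tagln, and the 6 Cnn3 sets lie between 0.15 and 0.25.

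Within the knockdown group the arrays kept a like order across these genes. Among the 14 called probe sets, knockdown replicate 1 was the sole lowest of the 3 knockdown arrays for 10, and replicate 3 the sole highest for 10. Over all 3520 probe sets called higher, replicate 1 was the sole lowest for 38.1% and replicate 3 the sole highest for 31.4%. The mean deviation of the 14 from their group mean was -0.08 for replicate 1, -0.01 for replicate 2 and 0.08 for replicate 3, small beside the differences between the groups. Among the control arrays replicate 2 had the lowest mean deviation, -0.05, and replicates 1 and 2 were each the sole lowest for 5 of the 14. The 14 sets belong to 9 genes, so sets of 1 gene share this order.

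**Figure D3:**
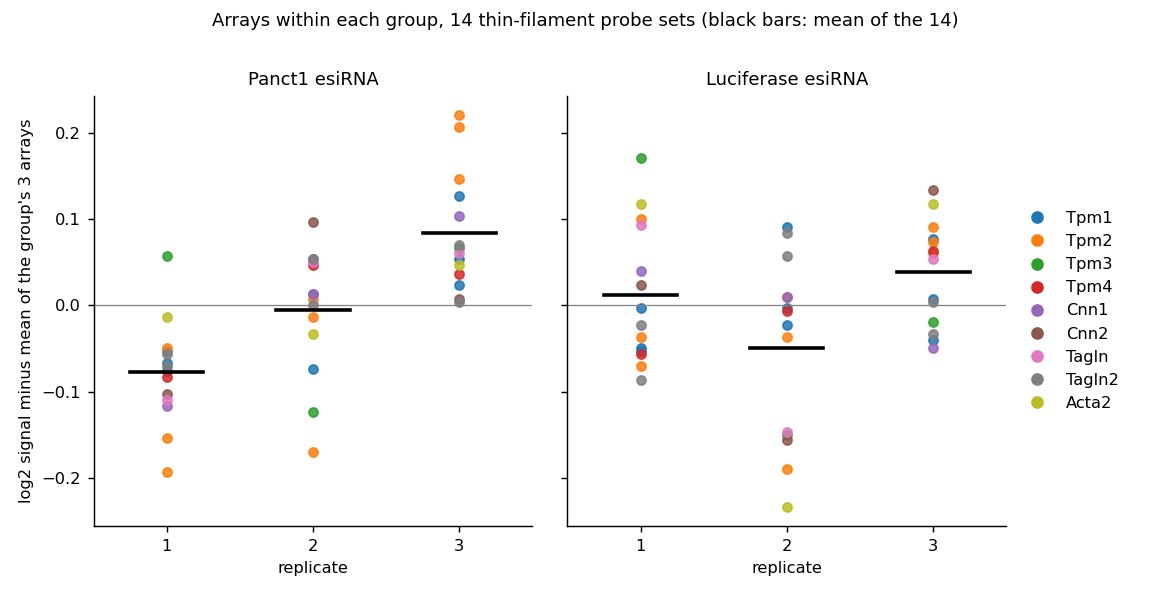
Log2 signal of each of the 14 called probe sets minus the mean of its own group's 3 arrays (vertical axis) by replicate (horizontal axis), Panct1 esiRNA left and Luciferase esiRNA right, coloured by gene, with the mean of the 14 as a black bar. Knockdown replicate 1 lies mostly below 0 (mean -0.08) and replicate 3 above it (mean 0.08).

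The genes whose 6 values, after subtraction of their own mean, were nearest to those of Tagln were Anxa3, an annexin (root mean square difference 0.11 on the log2 scale), Slc39a8, a zinc importer (0.15), Krt19, a keratin of simple epithelia (0.16), Tmcc3 (0.18) and Krt8, the partner of Krt18 in simple epithelia (0.19). Their own differences were 2.62, 2.64, 2.40, 2.53 and 2.28. Tagln was picked for the largest rise of the 29 sets, so genes near it have rises of like size by construction. The lowest difference among the 29 sets, -0.12 for the dimmest set of Tpm1, was not called, and the nearest profiles to it, those of Esyt3, 4930445E18Rik, Kcnk7, Slc34a2 and Atp6v0a4, were not called either (root mean square difference 0.01 to 0.03).

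Of 30 measured targets of MRTF and SRF outside the 10 genes, 16 rose and 3 fell, where 12.9% of all genes rose and 11.3% fell. Their median difference was 0.23, against -0.02 over all genes. This list and those that follow were chosen with earlier results of these data known. Nothing is therefore read from setting their counts beside the shares of all genes, which are the same for each list. Cald1, caldesmon, which binds actin and tropomyosin and restrains myosin, had 11.40, 11.36 and 11.26 in knockdown, against 9.27, 9.31 and 9.35 in controls, and rose by 2.03 (SE 0.07, limma adjusted p = 8.43e-07). Its highest knockdown array was replicate 1, which was the sole highest for 0 of the 14 called sets. Of 5 Cald1 probe sets 4 were called higher and the lowest differed by -0.10, and the mean over the 5 differed by 1.24. Fhl1, a LIM-domain protein of muscle, rose by 1.18 (adjusted p = 1.04e-05) and Myh9, a non-muscle myosin heavy chain, by 1.04 (adjusted p = 1.83e-05), and Ccn1, a secreted matrix-associated protein, rose by 1.59 (adjusted p = 6.91e-06). With the mean of a gene's probe sets Fhl1 differed by 0.58, its second set being at -0.02, and Ccn1 by 0.95, and both still passed. Outside the naming rule and picked with values in view, Myl9, a regulatory myosin light chain, rose by 1.64, Csrp1, a LIM-only actin-bundling protein, by 1.30, and Vcl, vinculin, by 0.91. The 3 that fell, picked in the same way, were Csrp2, which fell by 0.35, Filip1l, which fell by 0.32 with means below the lower quartile in both groups, and Lima1, which fell by 0.20. With array weights 5 fell. Among the 16, also picked with values in view, Pdlim5 has 7 probe sets, 1 called higher and 1 lower, with differences from -0.57 to 0.57. Smtn and Tgfb1i1 have 1 set each, which did not pass over all probe sets. Members of this list recur in the other lists.

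Of 5 other actin genes Acta1 and Actc1, the skeletal and cardiac alpha-actins, rose by 0.85 and 0.58 (limma adjusted p = 8.09e-04 and 4.83e-04), and 0 fell (0 at an unadjusted p under 0.05). Actg1, cytoplasmic gamma-actin, differed by 0.12 (adjusted p = 0.189), and the enteric actin Actg2 by 0.14 (adjusted p = 0.312). Actb, cytoplasmic beta-actin, also picked with values in view, differed by 0.01. Actb and Actg1 are among the brightest sets on the array, with 68 and 109 of the 45037 probe sets brighter, and whether their signals were near saturation was not tested. Among caldesmon, the tropomodulins, which cap the slow-growing filament end, and the leiomodins, 1 of 8 rose, Cald1, and 0 fell (1 and 0 at an unadjusted p under 0.05). Tmod3, the tropomodulin with the smallest p, differed by 0.12 (adjusted p = 0.271), Lmod2 by 0.16 (0.25) and Lmod3 by -0.08 (0.468). Of 8 troponins, the calcium switch of striated muscle, 0 rose (1 at an unadjusted p under 0.05) and Tnni1 fell by 0.41 (adjusted p = 0.00218), while Tnni3 at -0.27, Tnnt3 at 0.36 and Tnnc2 at 0.19 did not pass. Tnni3 passed as lower without knockdown replicate 2 (adjusted p = 0.0135, over a range of 0.0135 to 0.23) and Tnnc2 as higher without knockdown replicate 3 (0.0358, over a range of 0.0358 to 0.477). Actg1 passed as higher where the fit modelled a variance trend (adjusted p = 0.00545, over a range of 0.00545 to 0.377).

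Of 13 measured relatives, most of them with calponin-homology domains, 8 rose and 2 fell, with a median of 0.31. Parva, a parvin of focal adhesions, rose by 0.99 (limma adjusted p = 1.34e-04), Lasp1, an actin-binding LIM and SH3 protein that lacks the domain, by 0.61 (8.63e-04), and Tagln3, the neuronal transgelin, by 0.32 (0.00849), with 7.81, 7.89 and 7.91 in knockdown against 7.46, 7.62 and 7.56 in controls. Smtnl1, a smoothelin-like protein of muscle, fell by 0.83 (0.00385). The other with a fall was Parvb, picked with values in view, which fell by 0.42. Without knockdown replicate 2 or control replicate 2, 5 rose, and without knockdown replicate 2 or 3 or control replicate 1 or 3, 1 fell.

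Of 16 genes for SRF, its cofactors and the factors of the YAP and TEAD family, 5 rose and 0 fell (7 and 0 at an unadjusted p under 0.05), with a median of 0.19. Tead1, a TEAD transcription factor, rose by 0.93 (limma adjusted p = 6.25e-05), Fhl2, a LIM-domain cofactor, by 0.75 (2.13e-04), Wwtr1, the co-activator TAZ, by 0.40 (0.00174) and Tead4 by 0.35 (0.00696). The second Tead1 set differed by 0.05 and was not called, and the mean of both, 0.49, passed. Srf itself, picked with values in view like the next genes, had means of 8.47 ± 0.03 in knockdown and 8.42 ± 0.07 in controls (SD, n = 3) and did not pass. Mrtfa differed by -0.11 and Mrtfb by 0.21 without passing, and Yap1 rose by 0.20 over all genes though neither of its 2 sets passed over all probe sets.

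**Figure D4:**
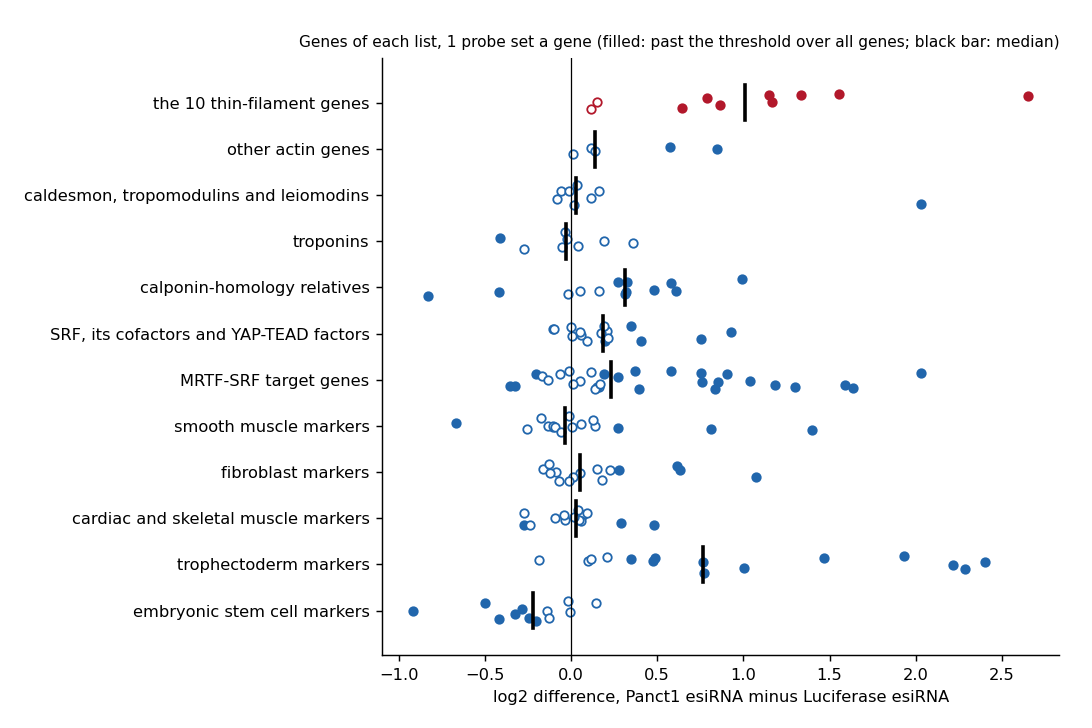
Log2 difference, Panct1 esiRNA minus Luciferase esiRNA (horizontal axis), of each gene of the 10 thin-filament genes and of the other lists, 1 probe set a gene, filled where past the threshold over all genes, with the list's median as a black bar. The medians are 1.01 for the 10 genes, which were chosen with this contrast known, 0.23 for the MRTF-SRF targets and -0.04 for the smooth muscle markers. The lists too were chosen with earlier results of these data known.

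Markers of other cell types were read beside these values. For each of these lists the share of all genes was 12.9% called higher and 11.3% called lower. Among 16 smooth muscle markers outside the 10 genes, 3 rose and 1 fell, with a median of -0.04. Itga8, an integrin subunit, rose 2.63-fold (limma adjusted p = 3.17e-05), Smtn, smoothelin, by 0.27 (0.0302) and Synm, synemin, by 0.81 (0.0428), and Synpo2 fell by 0.67 (0.00204). The only set of Smtn did not pass over all probe sets. The calls for Smtn and Synm were lost under 5 and 4 alternatives (adjusted p from 0.00679 to 0.114 and from 0.0168 to 0.141 over those run), and without knockdown replicate 3 or control replicate 1 the list had 1 rise. It had 2 falls without control replicate 3 and with array weights, and 0 without dim sets. With the mean of a gene's probe sets Itga8 differed by 0.86 and Synpo2 by -0.23, and both passed. Among defining markers picked with values in view, Myh11, smooth muscle myosin, had means of 5.05 ± 0.10 in knockdown and 5.11 ± 0.05 in controls, and Myocd, the smooth muscle cofactor of SRF, 5.24 ± 0.15 in knockdown and 5.23 ± 0.04 in controls (SD, n = 3), and neither passed. The summed linear signal of the list was 1511 to 1611 in knockdown and 1404 to 1464 in controls. Without Itga8, an alternative added after seeing the data, it was 1344 to 1435 in knockdown and 1332 to 1407 in controls, so the groups overlapped. Itga8 had the list's largest rise, so taking it out narrows the gap by construction. No other list was summed without its gene of largest rise.

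Of 15 measured fibroblast markers 4 rose and 0 fell (7 and 0 at an unadjusted p under 0.05): S100a4 by 1.07, Col3a1 by 0.63, Twist2 by 0.61 and Col1a1 by 0.28 (limma adjusted p = 0.00448, 0.00557, 0.00329 and 0.0246, the last lost under 6 alternatives, at 0.0148 to 0.0767 over those run). With the mean of a gene's probe sets 1 fell, Pdgfra, named after its values were seen, at -0.19 (adjusted p = 0.0431, over a range of 0.0431 to 0.974), and Col3a1 differed by 0.37 and passed. Col3a1 had means of 5.13 in knockdown and 4.50 in controls, the latter under the arrays' lower quartiles (4.65 to 4.70). The control means of Twist2 and Col1a1, 5.93 and 6.01, lay under the array medians of 6.07 to 6.09, and that of S100a4, 6.25, above them. The fibroblast list's summed linear signal was 1154 to 1207 in knockdown and 978 to 1031 in controls. Of 14 cardiac and skeletal muscle markers 2 rose, Myh6 by 0.48 and Actn2 by 0.29, and 1 fell, Myl2, which fell by 0.27. Of all genes 12.9% rose and 11.3% fell, so nothing is read from these counts. The sums of this list were 1309 to 1350 in knockdown and 1241 to 1283 in controls. With array weights 2 of this list fell. The call for Myl2 was lost on leaving out any 1 of the 6 arrays (adjusted p = 0.0529 to 0.126, over a range of 0.035 to 0.126), and Myh7 at -0.24 passed under 3 alternatives (adjusted p from 0.0298 to 0.166 over those run). Trophectoderm markers rose in 11 of 15 and fell in 0 (11 and 0 at an unadjusted p under 0.05), among them Krt7 by 1.93 and Plet1 by 1.47 (0.90 as the mean of its probe sets, which passed) beside Krt19 and Krt8. The list's sums were 13585 to 15280 in knockdown and 4222 to 4487 in controls, and its median difference was 0.77. Krt8, Krt19 and Krt18, the last picked with values in view, were its brightest genes in knockdown with its largest differences, so they weigh most in the sums. Esx1, Elf5, Hand1 and Plac1, also picked with values in view, did not pass. Of 12 stem cell markers 7 fell and 0 rose (7 and 1 at an unadjusted p under 0.05), with Fgf4, which fell by 0.92, Esrrb, which fell by 0.50, Zfp42, which fell by 0.42, and Dppa4, which fell by 0.29. The list had 4 falls without knockdown replicate 2 or control replicate 1 or 3. Pou5f1, the gene for Oct4, picked with values in view like Nanog, had means of 13.69 in knockdown and 13.93 in controls. Nanog had 12.73, 12.77 and 12.64 in knockdown, against 12.58, 12.52 and 12.60 in controls, with all knockdown arrays above all control arrays. Its difference of 0.15 did not pass (adjusted p = 0.143), but passed as higher with a robust variance trend (0.0313) and with array weights (0.0494), over a range of 0.0313 to 0.374. The part of these marker changes in the values of the 10 genes was not tested.

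The arrays' medians lay between 6.07 and 6.09, but RMA quantile-normalises arrays, so near-equal medians are no check of them. Arrays of 1 group correlated at 0.997 to 0.998 over all probe sets against 0.991 to 0.993 between groups. The 3′ control set of beta-actin exceeded the 5′ set by 0.22 to 0.26 on the knockdown arrays and by 0.22 to 0.28 on the control arrays, so this measure of RNA length overlapped between the groups.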

How the data were processed

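The authors deposited 1 log2 signal for each probe set on each array, made with GCOS 1.4 and RMA per the submitters' processing notes. RMA corrects background, quantile-normalises arrays and summarises the probes of a set. Which arrays were normalised together is not given in the sources used here. No further normalisation was applied to them. Of 45101 probe sets, 64 control sets were left out. A platform annotation table gave 34945 probe sets 1 symbol, 932 several and 9160 none, and 34741 symbols were updated by gene ID through RefSeq (GRCm38.p6). Arrays were grouped by their titles. Differences were fitted across all features with limma 3.58.1 (lmFit, eBayes, statmod 1.5.0, R 4.3.3), two-sided, with the group as the only term, with Benjamini-Hochberg adjustment over 45037 probe sets or over 18193 genes (the probe set with the highest mean per gene), at a threshold of 0.05. List counts use the fit over genes, and some genes that passed there, such as Yap1, Smtn, Myl2 and Pou5f1, had no set that passed over all probe sets. P-values measure the spread between these arrays, which may be technical. Their number limits the precision. The fit was tested on simulated data.

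The members and gene lists were chosen with earlier results of these data known. The named genes are all 10 members, the 4 genes of each list with the smallest p, and the 5 nearest profiles to the member probe set with the largest rise and to that with the largest fall. Other genes are marked where they appear. Start-site sequences are from RefSeq, build GRCm38.p6. The alternatives left out each array, dim probe sets, or the _x_at and _s_at sets, weighted the arrays, blocked on replicate number, centred arrays on their medians, repeated the quantile step, modelled a variance trend robustly, averaged a gene's probe sets, or asked for 1.5-fold.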

Additional observations from a re-analysis of the deposited data

How the results depend on the processing

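The count of thin-filament probe sets called higher was 14 on leaving out any 1 array, with arrays centred on their medians and with a replicate block. It was 15 with quantile normalisation repeated, without dim sets or with array weights, 19 with a robust variance trend, 13 at a 1.5-fold minimum and 11 without _x_at and _s_at sets. The differences of the 29 sets shifted by at most 0.15, but the block, the variance trend and the removal of dim sets leave them unchanged by construction, so this is no test of stability. With the mean of a gene's probe sets, the difference of Tpm1 was 0.91 in place of 1.55, that of Acta2 0.41 in place of 1.15 and that of Tagln2 0.38 in place of 0.64. Dim sets enter these means, and for Tpm1 the mean without its dim set, an alternative added after seeing the data, was 1.26. Tpm2 was then 0.54, Tpm3 0.19 and Cnn3 0.19. In all, 6565 probe sets were called, 2086 at a 1.5-fold minimum and 4266 to 5574 on leaving out 1 array, the lowest without Luciferase control replicate 1. The replicate block gave 4692 probe sets and 3496 genes in place of 4404. Same-numbered arrays did not deviate together (correlations of -0.16, -0.30 and -0.15, against up to 0.31 for other pairs), so the numbers are not read as pairs. Knockdown replicates 1, 2 and 3 correlated at 0.26, 0.31 and 0.16 with control replicates 2, 3 and 1. Whether those arrays shared a batch was not tested, and no fit blocked on that matching. MRTF-SRF targets that rose numbered 13 to 17 over the alternatives. Of 551 values of 43 named list genes, 524 kept their side of the threshold, 21 lost a call, 6 gained one and 0 changed direction while called. Dim sets have differences near background, and their lack of a call shows no absence of change.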
